A study of Mus musculus with 13 samples.

Results

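The slit diaphragm is the cell junction that bridges neighbouring foot processes of podocytes, the epithelial cells that cover the glomerular capillary, and it forms the last layer of the filter that keeps protein in the blood. Its extracellular part is built from immunoglobulin-type membrane proteins of the nephrin and NEPH families, which bind each other across the cleft. On the cytoplasmic side, adaptor and scaffold proteins tie this complex to the actin cytoskeleton, and loss of several of these proteins is known to cause protein loss into the urine. The transcripts of 9 core genes were examined in glomeruli of mice given antibodies against the podocyte protein THSD7A, a model of membranous nephropathy (MN). The 9 genes were chosen by name, with earlier results of these data known. They included *Nphs1*, which encodes nephrin, *Kirrel*, which encodes NEPH1, and the NEPH paralogs *Kirrel2* and *Kirrel3*. The others were the giant protocadherin gene *Fat1*, the adaptor and scaffold genes *Cd2ap*, *Magi2* and *Tjp1*, and the channel gene *Trpc6*. These were 9 of the 35967 gene symbols in the table, and all 9 were among the 14322 genes tested.

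Wildtype Balb/c mice received 2 mg of rabbit IgG by intraperitoneal injection, either preimmune control IgG (control, n = 5) or anti-THSD7A IgG, with glomeruli taken at day 1 (day 1 MN, n = 4) or day 5 (day 5 MN, n = 4). Control mice of both days form 1 group, and which control mouse belongs to which day is not given in the sources used here, so the time since injection cannot be separated from the antibody in a comparison with controls. Glomeruli were isolated after perfusion of the kidneys with magnetic beads, and the RNA of each mouse was sequenced as 1 library. The study's methods describe an enzymatic digestion and a mechanical isolation, give the mechanical one for glomeruli used in co-immunoprecipitation, and do not name the one used for RNA. For MN induction they give male mice aged 14 to 15 weeks, naming knockout mice and their littermates, while the labels name wildtype Balb/c mice. Injected antibody binds THSD7A on podocytes, whereas every library holds RNA of all glomerular cells, so a smaller share of podocytes and less RNA per podocyte cannot be told apart. Values are TPM, abundances rescaled to a fixed total in each library, which are scaled by transcript length and can be compared between genes, but which keep no read depth, so that no counting error can be given.

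Podocyte transcripts were abundant in every library, with a summed TPM of 18 podocyte markers between 10430 and 13910 in control libraries, 11440 and 13940 at day 1, and 12200 and 12930 at day 5. Control replicate 2 stood apart from the other control libraries. It had the lowest TPM of the 5 controls for 16 of the 18 podocyte markers and for 7 of the 9 slit diaphragm genes. Its mean log2 level of the tubular markers was also the lowest, 4.14 against 4.44 to 5.38 in the other controls. The limma values of *Nphs1*, *Kirrel* and *Magi2* are therefore given with and without it. Tubular transcripts moved with the groups: the summed TPM of 14 tubular markers was 587 to 1423 in controls, 1123 to 1772 at day 1 and 840 to 1019 at day 5. The 14 tubular markers had a median log2 fold change of 0.71 at day 1 and 0.04 at day 5. The summed TPM of 10 leukocyte markers, all above 0 in every library, was 28.4 to 49.8 in controls, 37.6 to 59.0 at day 1 and 25.4 to 57.0 at day 5. The part of these other cells in the results on the slit diaphragm genes was examined only by refitting with the tubular level as a covariate and by scaling to the podocyte markers.

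*Nphs1* and *Kirrel2* are direct neighbours in the genome, and of the pair only *Kirrel2* was called in the comparisons given here, so the promoters of both are shown. In GRCm39 (GENCODE vM39) *Kirrel2* (ENSMUSG00000036915.19) lies on the minus strand at chr7:30146958-30157131 and *Nphs1* (ENSMUSG00000006649.19) on the plus strand at chr7:30157740-30186675. The genes point away from each other with 608 bases and no annotated gene between them. The promoter sequences are those of RefSeq on GRCm38.p6, from 250 bases before to 50 bases after the start site, written 5′ to 3′ on the strand of the gene. The *Kirrel2* window is chr7:30457466-30457765 on the minus strand, the *Nphs1* window is chr7:30459808-30460107 on the plus strand, and the RefSeq start sites are 2543 bases apart. Capitals mark the letters of a searched motif:
Kirrel2: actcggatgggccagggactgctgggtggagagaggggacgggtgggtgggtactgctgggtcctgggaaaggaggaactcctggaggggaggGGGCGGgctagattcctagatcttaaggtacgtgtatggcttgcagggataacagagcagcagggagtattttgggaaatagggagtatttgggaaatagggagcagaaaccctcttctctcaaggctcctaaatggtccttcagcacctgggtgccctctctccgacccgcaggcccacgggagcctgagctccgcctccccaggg
Nphs1: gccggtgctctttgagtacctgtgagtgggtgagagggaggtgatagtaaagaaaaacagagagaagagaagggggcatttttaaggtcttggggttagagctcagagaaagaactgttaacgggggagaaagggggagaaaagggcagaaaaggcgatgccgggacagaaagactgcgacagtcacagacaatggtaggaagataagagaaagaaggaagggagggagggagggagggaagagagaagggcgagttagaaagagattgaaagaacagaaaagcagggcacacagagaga
A total of 5 motifs were searched on both strands. The TATA box, TATAAA, occurred in 13.6% of all 32851 mouse promoter windows. The GC box, searched as GGGCGG, occurred in 35.7% of them, and the CCAAT box in 37.4%. The AP-1 motif, searched as TGANTCA, occurred in 7.81%, and the EGR motif, searched as GCGGGGGCG, which can overlap a GC box, in 2.91%. The *Kirrel2* window held 1 GC box, 157 bases before the start site, at a GC content of 59.7%. None of the 5 motifs occurred in the *Nphs1* window, whose GC content was 49.7%. A match is a match of letters only. RefSeq windows were found for 8 of the 9 genes.

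The 9 genes spanned a wide range of levels in control glomeruli. *Nphs1* was by far the most abundant, with a median of 806 TPM and rank 135 of the 14322 tested genes. *Tjp1* followed at a median of 284 TPM, and its control libraries overlapped neither with those of *Nphs1* nor with those of *Cd2ap*. The medians of *Cd2ap* (152 TPM), *Magi2* (138 TPM), *Fat1* (82.3 TPM) and *Kirrel* (66.2 TPM) came next, and the ranges of neighbours in this order overlapped. *Kirrel2* (10.7 TPM) and *Trpc6* (8.79 TPM) also overlapped in controls. *Kirrel3* was at the limit of detection, with a median of 0.744 TPM. In both MN groups every *Kirrel2* value stood above every *Trpc6* value, and at day 5 every *Cd2ap* value stood above every *Magi2* value.

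**Figure D1:**
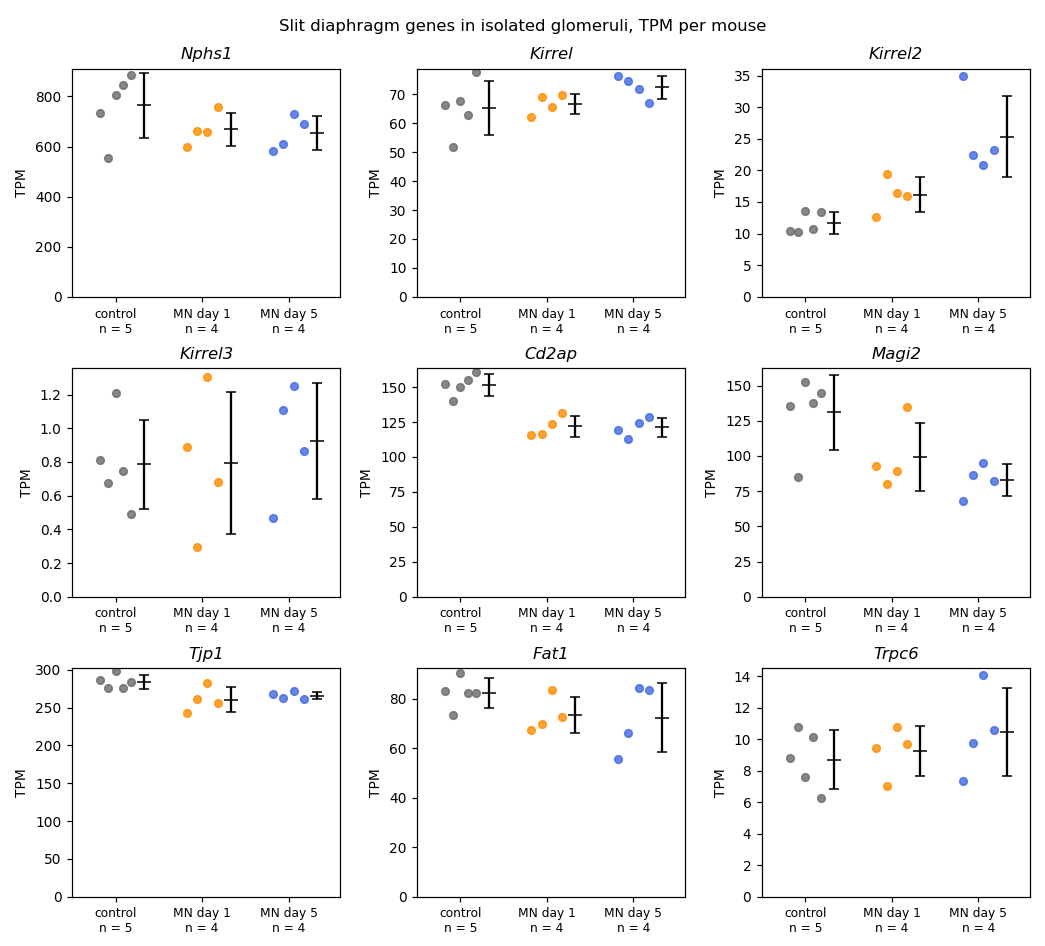
TPM of the 9 slit diaphragm genes in each library (y axis, linear from 0) for control, day 1 MN and day 5 MN mice (x axis). Points are mice and the bars are the mean ± SD. *Kirrel2* is higher in each day 5 library than in any control library, *Cd2ap* is lower at both days without overlap, and the other genes overlap between groups at 1 or both days.

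Of the 9 genes, 1 passed the call (limma, Benjamini-Hochberg adjusted p under 0.05 and a log2 fold change beyond 0.5 in either direction) at day 5 and 0 at day 1. Calls covered 3.21% of all tested genes at day 5 and 0.0908% at day 1. The called gene was *Kirrel2*, which rose, while 2.42% of all tested genes were called as higher at day 5. An unadjusted p under 0.05 was reached by 2 of the 9 genes at day 1, with 12.6% of all tested genes, and by 3 of the 9 at day 5, with 20.1% of all tested genes. Both days were compared with the same 5 control libraries, so the day 1 and day 5 results are not independent. The median log2 fold change of the 9 genes was -0.08 at day 1 and -0.06 at day 5, beside -0.0029 and -0.0032 over all tested genes. Between day 5 and day 1, 0 of the 9 genes were called with limma and 1 had an unadjusted p under 0.05, *Kirrel2*, whereas 1.81% of all tested genes were called and 15.5% had an unadjusted p under 0.05. Fold changes are on the scale log2(scaled TPM + 0.5), which understates changes of genes with few transcripts.

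*Nphs1* encodes nephrin, the long adhesion protein that spans the slit and signals through its phosphorylated cytoplasmic tail. Its TPM was 735, 556, 806, 845 and 884 in the 5 control libraries, 597, 664, 657 and 758 at day 1, and 584, 611, 729 and 690 at day 5. With all 5 controls the groups overlapped at both days. Without control replicate 2, the remaining controls ranged from 735 upward and every day 5 library lay below them. The share of all tested genes that separate without that library was not computed. The group means were 765 ± 129 TPM (SD, n = 5) in controls, 669 ± 66.7 TPM (n = 4) at day 1 and 654 ± 67.6 TPM (n = 4) at day 5. The log2 fold change was -0.13 (SE 0.13, 95% confidence interval -0.41 to 0.14, limma adjusted p = 0.694) at day 1 and -0.18 (SE 0.13, 95% confidence interval -0.45 to 0.09, limma adjusted p = 0.479) at day 5. Both intervals include 0. Without control replicate 2 the value was -0.25 (limma adjusted p = 0.358) at day 1 and -0.30 (unadjusted p = 0.00437, limma adjusted p = 0.0635) at day 5, neither of which passed adjustment. With the tubular level as a covariate it was -0.52 (unadjusted p = 0.000597, limma adjusted p = 0.195) at day 1 and -0.15 (limma adjusted p = 0.294) at day 5.

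*Kirrel* (GRCm39 chr3:86985900-87086810, minus strand) encodes NEPH1, the partner that binds nephrin along the slit. Its TPM was 66.2, 51.6, 67.5, 63.0 and 77.6 in controls, 62.2, 69.0, 65.6 and 69.8 at day 1, and 76.2, 74.7, 71.97 and 67.0 at day 5. The highest value belonged to a control mouse, and all 3 groups overlapped. The log2 fold change was 0.09 (95% confidence interval -0.14 to 0.32, limma adjusted p = 0.773) at day 1 and 0.20 (95% confidence interval -0.03 to 0.43, limma adjusted p = 0.334) at day 5. Without control replicate 2, the day 1 value was -2.0e-05 and the day 5 value was 0.11 (limma adjusted p = 0.541).

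*Kirrel2* encodes the NEPH paralog NEPH3, also called filtrin, an adhesion protein of the same family that is found at the slit diaphragm. Its TPM was 10.4, 10.3, 13.6, 10.7 and 13.4 in controls, 12.7, 19.5, 16.4 and 16.02 at day 1, and 34.9, 22.5, 20.9 and 23.2 at day 5. At day 1, 1 mouse lay within the control range and 3 lay above it. At day 5 all 4 libraries lay above every control library and above every day 1 library, with day 5 replicate 1 the highest. Among all tested genes, 5.07% were higher at day 5 than in controls without overlap, and 6.12% were higher at day 5 than at day 1 without overlap. The mean was 11.7 ± 1.67 TPM (SD, n = 5) in controls, 16.1 ± 2.80 TPM (n = 4) at day 1 and 25.4 ± 6.42 TPM (n = 4) at day 5, which was 1.38 and 2.17 times the control mean. *Kirrel2* rose at day 5, with a log2 fold change of 1.10 (SE 0.17, 95% confidence interval 0.73 to 1.47, limma adjusted p = 0.00166). The day 1 log2 fold change of 0.49 (SE 0.17, 95% confidence interval 0.12 to 0.86) did not pass adjustment (limma adjusted p = 0.301). From day 1 to day 5 the difference was 0.61 (SE 0.18, 95% confidence interval 0.22 to 1.00, limma adjusted p = 0.112). The day 5 call held without each of the 13 libraries in turn, with a lowest log2 fold change of 0.92.

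*Kirrel3* (chr9:34397190-34951024, plus strand), which encodes the remaining NEPH paralog, NEPH2, was barely detected. Its TPM was 0.809, 0.677, 1.21, 0.744 and 0.489 in controls, 0.889, 0.298, 1.30 and 0.683 at day 1, and 0.466, 1.11, 1.25 and 0.866 at day 5. Only 4 of the 13 libraries reached 1 TPM, the smallest number that admits a gene to the test. The 95% confidence interval at day 5, -0.44 to 0.75, was the widest of the 9 genes beside that of day 1, and a difference was not detectable at this level.

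The 3 paralogs were also compared as shares of their summed TPM in each library, since these share a unit. The sum was 77.6 ± 10.6 TPM (SD, n = 5) in controls, 83.6 ± 5.71 TPM (n = 4) at day 1 and 98.7 ± 9.02 TPM (n = 4) at day 5. *Kirrel2* made up 13.5% to 16.5% of it in controls, 16.7% to 22.0% at day 1 and 22.2% to 31.3% at day 5. These 3 ranges did not overlap, but only by narrow margins, 16.54% against 16.71% and 21.96% against 22.17%. How often shares within other gene families separate these groups was not computed. *Kirrel* remained the major NEPH transcript in every library, with 68.3% as the lowest share. No pair of the Kirrel transcripts matched each other at an identity of 90%, and near-identical sequence shared between them was not found.

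**Figure D2:**
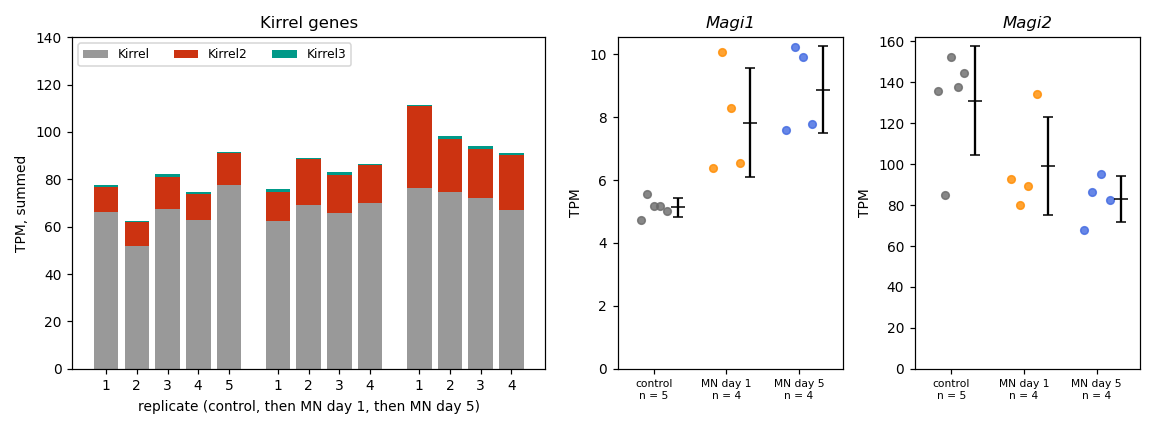
Left, summed TPM of *Kirrel*, *Kirrel2* and *Kirrel3* (y axis) stacked for each of the 13 libraries (x axis, replicates of control, day 1 MN and day 5 MN). Middle and right, TPM of *Magi1* and *Magi2* per library with mean ± SD; *Magi1* is higher than controls without overlap at both days and *Magi2* overlaps with controls.

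*Fat1* (chr8:45388302-45505294, plus strand) encodes a protocadherin of the slit diaphragm that is linked to actin dynamics. Its TPM was 83.3, 73.4, 90.5, 82.3 and 82.3 in controls, 67.3, 69.8, 83.7 and 72.7 at day 1, and 55.7, 66.0, 84.3 and 83.3 at day 5. At day 5, 2 libraries lay below every control library and 2 lay within the control range, so the groups overlapped. The log2 fold change was -0.12 (limma adjusted p = 0.651) at day 1 and -0.17 (95% confidence interval -0.39 to 0.05, limma adjusted p = 0.397) at day 5.

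*Cd2ap* (chr17:43103839-43187613, minus strand) encodes the adaptor that binds the nephrin tail and links it to actin and to phosphoinositide 3-kinase signalling. Its TPM was 152, 140, 150, 155 and 161 in controls, 116, 116, 123 and 132 at day 1, and 119, 113, 124 and 128 at day 5. Every MN library was below every control library at both days, and the MN libraries of the 2 days covered the same range. Among all tested genes, 3.32% were lower without overlap at day 1 and 5.71% at day 5. The mean was 152 ± 7.68 TPM (SD, n = 5) in controls, 122 ± 7.43 TPM (n = 4) at day 1 and 121 ± 6.56 TPM (n = 4) at day 5, or 0.805 and 0.800 times the control mean. At day 5 the log2 fold change of -0.29 (SE 0.06, 95% confidence interval -0.42 to -0.16) passed the adjusted p (limma adjusted p = 0.0117) but not the fold threshold. An adjusted p under 0.05 alone was reached by 6.12% of all tested genes at that day. At day 1 the difference was of the same size, -0.27 (SE 0.06, 95% confidence interval -0.40 to -0.14), with a limma adjusted p = 0.146. The day 5 difference missed the adjusted p when libraries were scaled to the podocyte markers (limma adjusted p = 0.214, log2 fold change -0.22). The *Cd2ap* transcript, of 5673 bases, matched *Gm49797* over 2018 bases at an identity of at least 90%, which is under 50% of its length. The part of this match in the *Cd2ap* values was not tested.

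*Magi2* (chr5:19431741-20909790, plus strand) encodes a membrane-associated scaffold with PDZ domains that binds the nephrin complex. Its TPM was 136, 85.04, 152, 138 and 145 in controls, 92.7, 80.2, 89.2 and 135 at day 1, and 68.1, 86.6, 95.2 and 82.3 at day 5. Control replicate 2 lay within the MN range, so the groups overlapped at both days, and the other 4 controls lay above all 4 day 5 libraries. The share of all tested genes that separate without that library was not computed. In TPM as deposited all 4 day 1 mice also lay below those 4 controls, with replicate 4 close to the lowest of them. After the scaling used in the fit, day 1 replicate 4 lay above control replicate 1. The mean was 131 ± 26.6 TPM (SD, n = 5) in controls, 99.2 ± 24.1 TPM (n = 4) at day 1 and 83.0 ± 11.3 TPM (n = 4) at day 5. The log2 fold change was -0.36 (SE 0.18, limma adjusted p = 0.430) at day 1. At day 5 it was -0.60 (SE 0.18, 95% confidence interval -0.99 to -0.22, limma adjusted p = 0.0661), just outside the threshold. Without control replicate 2 the day 5 value was -0.76 and passed the call (limma adjusted p = 0.00540), and the day 1 value was -0.51 (limma adjusted p = 0.254). With all libraries kept, the day 5 call was also reached with the tubular level as a covariate (-0.57, limma adjusted p = 0.0241), with podocyte scaling (-0.53, limma adjusted p = 0.0226) and with array quality weights (-0.628, limma adjusted p = 0.0276). These were 3 of 12 alternative settings, over which the limma adjusted p reached up to 0.128. With 1 of the 13 libraries left out in turn, the call was reached in 2 fits, with a limma adjusted p of up to 0.179.

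*Tjp1* (chr7:64945898-65177529, minus strand) encodes ZO-1, a scaffold of tight junctions that also sits at the cytoplasmic face of the slit diaphragm. Its TPM was 287, 275, 299, 276 and 284 in controls, 243, 261, 282 and 256 at day 1, and 268, 263, 272 and 261 at day 5. In TPM as deposited the day 5 libraries all lay below the lowest control library, by a narrow margin, whereas day 1 overlapped with controls. Among all tested genes, 5.71% were lower without overlap at day 5. After the scaling used in the fit, the day 5 and control libraries of *Tjp1* overlapped. The log2 fold change was -0.08 (SE 0.05, limma adjusted p = 0.537) at day 1 and -0.06 (SE 0.05, 95% confidence interval -0.17 to 0.05, limma adjusted p = 0.579) at day 5. *Tjp1* was measured with the narrowest interval of the 9 genes.

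*Trpc6* (chr9:8492905-8682359, plus strand) encodes a calcium-permeable channel that associates with the slit diaphragm and is mutated in a hereditary form of focal segmental glomerulosclerosis. Its TPM was 8.79, 10.8, 7.56, 10.1 and 6.24 in controls, 9.45, 7.05, 10.8 and 9.66 at day 1, and 7.35, 9.73, 14.1 and 10.6 at day 5. All groups overlapped, and the log2 fold change was 0.14 (limma adjusted p = 0.788) at day 1 and 0.27 (95% confidence interval -0.10 to 0.65, limma adjusted p = 0.427) at day 5.

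**Figure D3:**
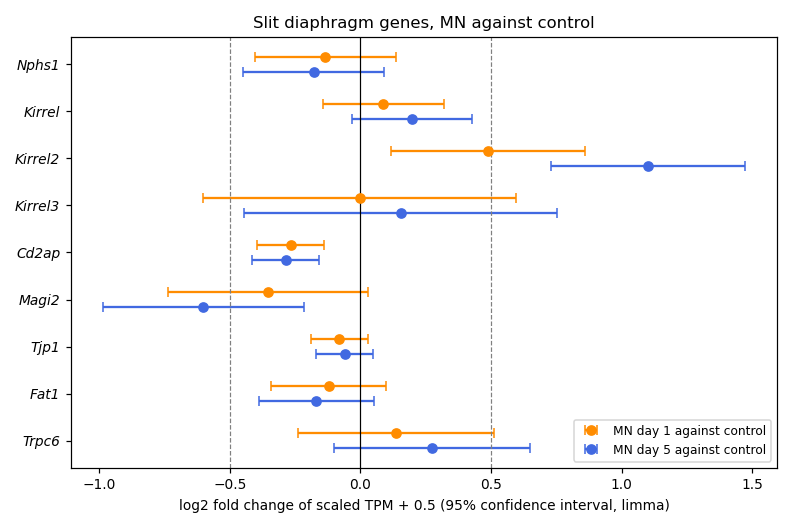
Log2 fold change of scaled TPM + 0.5 (x axis) for the 9 genes (y axis) at day 1 and day 5 against the 5 shared control libraries. Points are limma estimates, bars are 95% confidence intervals and dashed lines mark the fold threshold of 0.5. The intervals are not adjusted for the number of genes tested. The day 5 interval of *Kirrel2* lies wholly above the threshold, at 0.73 to 1.47, and its day 1 interval, 0.12 to 0.86, lies above 0. Both intervals of *Cd2ap* and the day 5 interval of *Magi2*, -0.99 to -0.22, lie wholly below 0.

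Expression relative to *Nphs1* in the same library was examined for *Kirrel*, *Kirrel2* and *Magi2*, since a ratio between podocyte transcripts does not move when the share of podocytes changes equally for both. *Kirrel2* was 1.27% to 1.85% of the *Nphs1* TPM in controls, with values of 2.12%, 2.94%, 2.49% and 2.11% at day 1 and 5.97%, 3.68%, 2.86% and 3.36% at day 5. Neither MN group overlapped with the controls. The log2 ratio was higher by 0.64 (SE 0.15) at day 1 and by 1.31 (SE 0.25) at day 5, each with an exact two-sided permutation p = 0.0159 (Benjamini-Hochberg adjusted 0.0238 over 6 tests), the smallest p that 5 against 4 mice allow. The *Kirrel* ratio was 7.45% to 9.29% in controls, and it was 13.04%, 12.2%, 9.87% and 9.70% at day 5, without overlap. This was a log2 difference of 0.38 (SE 0.12, exact permutation p = 0.0159, adjusted 0.0238). At day 1 the difference was 0.22 (SE 0.07, exact permutation p = 0.0317, adjusted 0.0381), with 1 day 1 library inside the control range, and the p missed 0.05 without any 1 of 7 libraries (range over all left-out libraries 0.0286 to 0.0714). The *Magi2* ratio was 18.5%, 15.3%, 18.9%, 16.3% and 16.3% in controls and 11.7%, 14.2%, 13.1% and 11.9% at day 5. Here control replicate 2 lay above all 4 day 5 libraries, unlike its TPM. The log2 difference was -0.43 (SE 0.09, exact permutation p = 0.0159, adjusted 0.0238) at day 5 and -0.22 (SE 0.13, exact permutation p = 0.127, adjusted 0.127) at day 1. These ratios are not independent of each other, as all share *Nphs1* as the denominator. A lower *Nphs1* level raises each ratio, whatever the numerator. For *Kirrel* neither gene passed adjustment on its own at day 5, with limma values of 0.20 for *Kirrel* and -0.18 for *Nphs1*. The ratio difference is thus one of the pair and not of *Kirrel* alone. At day 1 neither gene of the *Kirrel2* ratio passed adjustment on its own. The limma values were 0.49 for *Kirrel2* (limma adjusted p = 0.301) and -0.13 for *Nphs1* (limma adjusted p = 0.694). The share of all tested genes whose ratio to *Nphs1* separates the groups was not computed.

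**Figure D4:**
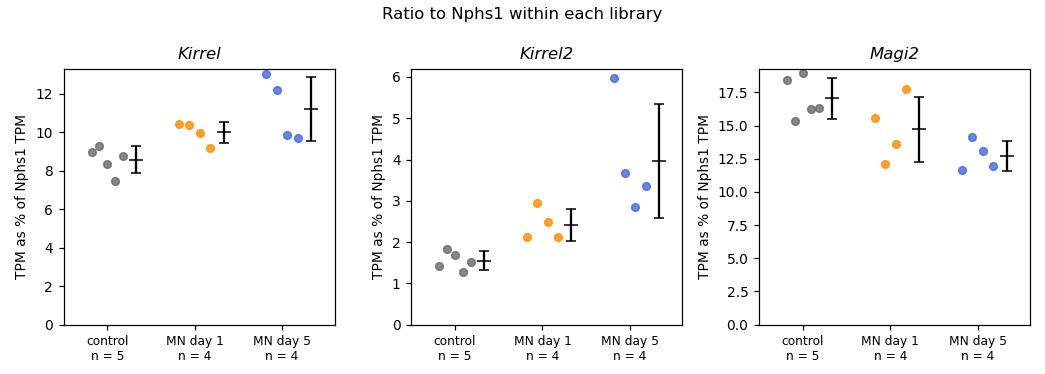
TPM of *Kirrel*, *Kirrel2* and *Magi2* as a percentage of the *Nphs1* TPM of the same library (y axis, from 0) in control, day 1 MN and day 5 MN mice (x axis), with points for mice and bars for mean ± SD. At day 5 the *Kirrel* and *Kirrel2* ratios lie above and the *Magi2* ratio lies below every control library.

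Across the 13 libraries, with group means removed, the log2 levels of *Nphs1* and *Kirrel2* had a Pearson r of 0.248 (permutation p = 0.415) and a Spearman rho of 0.236 (permutation p = 0.438). Without the 2 libraries farthest from the median of *Nphs1*, control replicates 2 and 5, r was -0.0675 (n = 11, permutation p = 0.845). A shared variation of these neighbouring genes within groups was thus not detected. The genes most like *Nphs1* by Pearson r of group-centred log2 values over the 13 libraries were *Paqr5* (0.935), *Pkhd1* (0.931) and *Vegfa* (0.931). Their mean levels were 5.46, 1.93 and 1114 TPM, so *Paqr5* and *Pkhd1* had few transcripts. The genes most like *Kirrel* were *Fa2h* (0.940), *Atp5md* (0.933) and *Sdc4* (0.932). For *Magi2* they were *Znrf3* (0.980, mean 5.32 TPM), *Arhgap28* (0.967) and *Steap3* (0.943). These are the highest values among all tested genes, over libraries that share their preparation, and they are given as a description.

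Genes whose products bind or lie near the slit diaphragm were read from a list of 24 partners, of which 23 were tested. At day 5, 0 were called as higher and 2 as lower, while 0.789% of all tested genes were called as lower. An unadjusted p under 0.05 was reached by 10 of the 23 at day 5, beside 20.1% of all tested genes. At day 1 limma called 0, with 6 at an unadjusted p under 0.05, beside 12.6% of all tested genes. The median log2 fold change of the tested partners was -0.06 at day 1 and 0.04 at day 5. The called genes were *Ddn*, which encodes the podocyte protein dendrin that binds nephrin and CD2AP, and *Thsd7a*, the target of the injected antibody. *Ddn* TPM was 626 ± 61.9 (SD, n = 5) in controls, 462 ± 82.6 (n = 4) at day 1 and 407 ± 18.7 (n = 4) at day 5, a log2 fold change of -0.58 at day 5 (limma adjusted p = 0.00699). *Thsd7a* TPM was 174 ± 34.6 (n = 5) in controls and 97.2 ± 15.5 (n = 4) at day 5, a log2 fold change of -0.79 (limma adjusted p = 0.0112). *Synpo*, which encodes the actin-associated protein synaptopodin, passed the adjusted p but not the fold threshold at day 5 (log2 fold change -0.46, limma adjusted p = 0.00197), and so did *Iqgap1*, a nephrin-binding scaffold gene, in the other direction (0.37, limma adjusted p = 0.00400). The abundant *Podxl*, which encodes the charged surface protein podocalyxin, had a day 5 value of 0.01 (95% confidence interval -0.18 to 0.20, limma adjusted p = 0.964), and *Actn4*, an actin cross-linker gene, had 0.21 (limma adjusted p = 0.242).

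Relatives of the core genes in the same families were a list of 13, of which 9 were tested. At day 5 limma called 1 of them as higher and 0 as lower, while 2.42% of all tested genes were called as higher. At day 1 it called 0 of the relatives, with 2 at an unadjusted p under 0.05, beside 12.6% of all tested genes. The called gene was *Magi1*, which encodes a scaffold of the same family as *Magi2*. Its TPM was 4.75, 5.55, 5.18, 5.18 and 5.00 in controls, 6.39, 10.1, 8.29 and 6.55 at day 1, and 7.60, 10.2, 9.93 and 7.77 at day 5. All 8 MN libraries lay above all 5 controls, although *Magi1* stayed far below *Magi2* in every library. Among all tested genes, 0.908% were higher than controls without overlap at day 1 and 5.07% at day 5. The share that did so at both days was not computed. The log2 fold change was 0.76 (SE 0.14, 95% confidence interval 0.46 to 1.06, limma adjusted p = 0.00477) at day 5 and 0.59 (SE 0.14, limma adjusted p = 0.178) at day 1. *Magi3*, the remaining gene of that family, had a day 5 value of 0.02 (95% confidence interval -0.20 to 0.24). *Trpc1*, the most abundant channel relative of *Trpc6*, had -0.09 (limma adjusted p = 0.523). *Sh3kbp1*, the relative of *Cd2ap* that encodes the adaptor CIN85, had -0.03 (limma adjusted p = 0.919), and *Trpc4*, a further channel gene, had 0.11 (limma adjusted p = 0.798). *Trpc5* was listed at 0 in 9 libraries and *Trpc7* in 3.

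Markers of the podocyte and of other cells were read beside these results. Of all tested genes, 3.21% were called and 20.1% had an unadjusted p under 0.05 at day 5. The day 1 shares were 0.0908% and 12.6%. Of 18 podocyte markers, some of which are also among the slit diaphragm partners, 1 was called at day 5, *Cdkn1c*, a cell cycle inhibitor gene, which rose from 1245 ± 151 to 1997 ± 171 TPM (log2 fold change 0.72, limma adjusted p = 0.000708). The median over the podocyte markers was -0.07 at day 1 and -0.08 at day 5. Of 10 glomerular endothelial markers limma called 0 at day 5, with 4 at an unadjusted p under 0.05 and a median of 0.20, and the most abundant, *Plat*, had -0.09 (limma adjusted p = 0.885). Of 10 mesangial markers 1 was called at day 5, the smooth muscle gene *Tagln* (1.30, limma adjusted p = 0.000639), which was also higher at day 5 than at day 1 (0.86, limma adjusted p = 0.0270). The mesangial median was 0.17, and the most abundant marker, *Serpine2*, had 0.42 (limma adjusted p = 0.0113). Of 14 tubular markers 1 was called at day 1, *Pvalb* (1.43, limma adjusted p = 0.0395), and all 14 had values above 0, with 0.61 for the most abundant, *Umod* (limma adjusted p = 0.268). Over all tested genes 50.8% had a day 1 value below 0. Between day 5 and day 1 *Pvalb* (-1.38), *Calb1* (-1.39) and *Aqp2* (-1.30) were called as lower. Over all tested genes 0.398% were called as lower and 1.41% as higher between these days. Of the 7 leukocyte markers tested limma called 0 at day 5, with 2 at an unadjusted p under 0.05, a median of 0.42 and a value of 0.05 for the most abundant, *Lyz2*. With the tubular level as a covariate, the day 5 value of *Kirrel2* was 1.11 (limma adjusted p = 0.00225) and its day 1 value was 0.38 (limma adjusted p = 0.740). The same covariate moved the day 1 values further from 0 for *Magi2*, from -0.36 to -0.83 (limma adjusted p = 0.237), for *Cd2ap*, from -0.27 to -0.41 (limma adjusted p = 0.152), and for *Nphs1*, from -0.13 to -0.52. In that fit limma called 0 of the 9 genes at day 1, with 3 at an unadjusted p under 0.05. The share of all tested genes with such a p in that fit was not computed. The tubular level was 5.17 to 5.79 at day 1 and 4.14 to 5.38 in controls, so these groups overlapped little in it. Control replicate 2 had the lowest level, and the covariate fit without it is not given here.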

How the data were processed

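RNA of isolated glomeruli of 13 mice was sequenced with 1 library per mouse. Per the labels and the submitters' processing notes, reads were checked with FastQC 0.11.9, trimmed with Trimmomatic 0.39 and assigned to transcripts of GRCm39 with kallisto 0.46.2. The authors deposited 1 TPM value per gene symbol and library, and they tested counts, which were not used here, so the depth was unknown. Whether the library kept strand is not given in the sources used here, and 8 of the 9 genes overlap annotated antisense genes (all but *Kirrel2*).

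Groups come from the sample labels. Each library was scaled by a median-of-ratios factor from the 15772 genes above 0 in all libraries, and log2 values were taken after adding 0.5. Genes with at least 1 TPM in at least 4 libraries were tested in 1 fit of all 3 groups with limma 3.58.1 in R 4.3.3 (trend, Benjamini-Hochberg adjustment per comparison), with calls at an adjusted p under 0.05 and a log2 fold change beyond 0.5 in either direction. Printed TPM are as deposited. Ratios and correlations were tested by permutation with SciPy 1.17.1 in Python 3.11.15, and transcript similarity was searched with BLAST+ 2.17.0 at an identity of 90% over 50% of the transcript. The fit and the permutation test were tested on simulated data.

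The members and gene lists were chosen with earlier results of these data known. All 9 genes are named, with the called genes of the partner, relative and marker lists, up to 4 abundant ones of the first 2, and the 3 genes most like *Nphs1*, *Kirrel* and *Magi2*. Results for 2 genes that this rule names are not reported here. *Iqgap1*, *Magi3*, *Trpc5* and *Trpc7* were added after their values were seen. Alternatives covered pseudocounts of 0.1 and 1, no further scaling, quantile normalization, other filters, no trend, a fit of 2 groups, array quality weights, a replicate block, calls by the adjusted p only, a tubular covariate, scaling to podocyte markers, and leaving out each library.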

Additional observations from a re-analysis of the deposited data

Results flagged for a closer look

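Dixon's test was run on the TPM of the 9 genes in each of the 3 groups, 27 in all, and 2 stood out, where chance marks about 1 in 20. *Kirrel2* in day 5 MN replicate 1 was 34.9 TPM, while the other 3 day 5 libraries lay between 20.9 and 23.2 TPM. Without that library *Kirrel2* was still called at day 5, with a log2 fold change of 0.92. *Magi2* in control replicate 2 was 85.04 TPM, while the other 4 control libraries lay between 136 and 152 TPM. The same library had a mean log2 level of the podocyte markers of 8.25, against 8.57 to 8.72 in the other controls, and the part of this in its *Magi2* value was not tested.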

How the results depend on the processing

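*Kirrel2* was called at day 5 under every alternative, with a log2 fold change of 0.92 to 1.204 and a limma adjusted p between 0.000836 and 0.0166. The number of core genes called was 0 at day 1 and between the days throughout. At day 5 it was 1, and it was 2 with array quality weights (*Magi2* added, -0.628), the adjusted p alone (*Cd2ap* added), the tubular covariate (*Magi2*, -0.57) and podocyte scaling (*Magi2*, -0.53), and 1 to 2 when 1 library was left out, with *Magi2* added without control replicate 2 or day 1 replicate 4. The *Kirrel* to *Nphs1* difference at day 1 was 0.17 to 0.26 with 1 library left out. The correlation of *Nphs1* and *Kirrel2* was -0.221 without group centring, -0.0675 without the 2 farthest libraries, and 0.0799 to 0.526 with 1 left out.

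Among values that were not called, some changed sign, including the day 5 to day 1 difference of *Magi2* (-0.25). With a pseudocount of 1 *Kirrel3* was 0.00617 at day 1, and with quantile normalization *Tjp1* was -0.0142 between the days. With the tubular covariate *Kirrel* was -0.16 and *Kirrel3* 0.17 at day 1, and the day 5 to day 1 differences were 0.37 for *Nphs1*, -0.0312 for *Kirrel3*, 0.135 for *Cd2ap*, 0.262 for *Magi2*, 0.0448 for *Fat1* and -0.0917 for *Trpc6*. With podocyte scaling *Kirrel3* was 0.0736 at day 1 and *Tjp1* 0.00858 at day 5. With 1 library left out, day 1 values were -0.18 to 0.21 for *Kirrel3* and -2.0e-05 to 0.17 for *Kirrel*. Day 5 to day 1 values were -0.0107 to 0.0504 for *Tjp1*, -0.0522 to 0.333 for *Kirrel3*, -0.114 to 0.0522 for *Fat1*, -0.0960 to 0.0175 for *Nphs1* and -0.0411 to 0.0191 for *Cd2ap*. The cause of these changes was not tested.

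Over all tested genes the 13 calls of day 1 became 6 without a filter, 7 without the trend, 2 with only 2 groups, 149 with the replicate block, 0 with the tubular covariate and 3 to 217 with 1 library left out (217 without control replicate 5). The 460 calls of day 5 became 876 by the adjusted p alone. The 259 calls between the days became 153 with 1 TPM required in every library, 414 with 2 groups, 95 with the tubular covariate and 184 to 435 with 1 left out. Replicate numbers name different mice, and the deviations of same-numbered libraries had correlations of -0.0563 to 0.0913. As a block they left *Kirrel2* at 1.16 (adjusted p = 0.0166 in limma) and *Magi2* at -0.55 (0.128) at day 5, and core calls at 0, 1 and 0. TPM give no depth, so low values such as those of *Kirrel3* have unknown counting error.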
